A study of Homo sapiens with 4 samples.

Results

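The deposited table of this study lists 55 genes of the antisense class among 1232 genes in all. They were chosen by their annotated gene biotype alone, and each was set beside any listed gene on the other strand that overlaps its span or lies within 5 kb of it. The cells were AMO1, an established human multiple myeloma line, a cancer of plasma cells. Every library came from cells transduced with a lentivirus carrying the PCDH vector. The 2 groups were cells overexpressing PHF19 (PHF19_OE, 2 libraries) and cells with the empty vector (EV, 2 libraries). PHF19 is an accessory subunit of Polycomb repressive complex 2, which methylates histone H3 at lysine 27, and the comparison asks what its overexpression does to the RNA of these cells.

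An antisense gene is transcribed from the strand opposite to another gene, often across its exons or out of its promoter region. Some antisense RNAs share a divergent start region with the coding gene, some lie inside its introns, and some cover its end. Their levels are usually low in comparison with mRNAs, and only a few have a described function.

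The table holds no gene with an unadjusted p above 0.0499, so it is a selection by the authors' own contrast. Directions, groups that do not overlap and fold changes of listed genes are therefore descriptions, read against the same counts over all 1232 listed genes. The labels do not tell separate cultures from repeat libraries of one culture, and the p-values measure the spread between these libraries, which may be technical. Whether reads were counted by strand is not given in the sources used here. Reads from a gene and from its antisense partner can therefore not be told apart where their exons overlap. The same holds for reads from a gene's introns where antisense exons lie inside them, as for AC010247.2 in POU2F2. The part of such reads was not tested. Of the 55 antisense genes, 50 lie over a coding gene of the other strand in GENCODE 29 and 12 of these coding genes are listed. Exonic overlap is small for most: the median antisense gene had 3.23% of its exonic bases on coding exons of the other strand, 21 had none, and 6 had most of them there (AC137630.1, AC006064.2, AGAP2-AS1, AC013356.2, AC091152.2 and AC092611.1).

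Library depth was 23835805 and 28156519 reads in PHF19_OE and 35258920 and 29461022 reads in EV. The antisense genes took 2282 and 1697 of these reads in PHF19_OE, against 9092 and 4327 in EV. PHF19 itself had 9670 and 8777 normalized counts in PHF19_OE, against 1842 and 4506 in EV. Both overexpressing libraries were higher, and the authors' deposited table gives a log2 fold change of 1.54 (adjusted p 0.0897). Over the listed genes with reads, the chi-square per degree of freedom was 39.2 between the PHF19_OE libraries and 347 between the EV libraries. By this measure the EV libraries differed more from each other. The measure uses raw counts and grows with their sum, which was 1043965 and 1118990 in PHF19_OE and 2491062 and 1188407 in EV. The part of these unequal sums in it was not tested. Of the cell type markers listed, CD38 of plasma cells had 901 and 660 normalized counts in PHF19_OE, against 3228 and 2138 in EV. It is the only listed one of 9 plasma cell markers. Listed genes were selected by this contrast, so the cell type could not be checked here.

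Start regions are shown for 3 loci described below. At BHLHE40 and TNFAIP3 the deposited 5′ ends of both strands lie within 2 kb of each other, and at MEF2C the start of the antisense gene lies beside one of several starts of the coding gene. Each is the RefSeq window of 300 bases around a gene's start on GRCh38.p14, written 5′ to 3′ on the gene's own strand. Capitals mark matches on either strand to any of 6 motifs, and adjoining or overlapping matches form one run of capitals. The E box was spelled CACGTG, the GC box of Sp factors was spelled GGGCGG, and the TATA box was spelled TATAAA. The octamer bound by POU factors was spelled ATGCAAAT, the kappa B motif was spelled GGNNTTTCC, and the box bound by NF-Y was spelled CCAAT. The MEF2C-AS1 window is chr5:88883080-88883379 on the plus strand, and the MEF2C window is chr5:88883135-88883434 on the minus strand. This MEF2C window was chosen as the one nearest to MEF2C-AS1 among 7 that RefSeq gives, and it shares 245 bases with the antisense window, with starts 146 bases apart. The start of MEF2C by the deposited coordinates lies 20929 bases from that of MEF2C-AS1, and the window nearest to it shares 0 bases with the antisense window. The BHLHE40-AS1 window is chr3:4979912-4980211 on the minus strand and the BHLHE40 window is chr3:4979187-4979486 on the plus strand, with starts 524 bases apart, the nearer of 2 antisense windows being shown. The TNFAIP3 window is chr6:137867009-137867308 on the plus strand.
MEF2C-AS1: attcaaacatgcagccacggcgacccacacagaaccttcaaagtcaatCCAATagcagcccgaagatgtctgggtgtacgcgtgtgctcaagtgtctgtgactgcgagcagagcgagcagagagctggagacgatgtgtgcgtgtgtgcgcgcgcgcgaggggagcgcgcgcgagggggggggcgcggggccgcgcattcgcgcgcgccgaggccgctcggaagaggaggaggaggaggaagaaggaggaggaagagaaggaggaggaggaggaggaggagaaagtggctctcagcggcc
MEF2C: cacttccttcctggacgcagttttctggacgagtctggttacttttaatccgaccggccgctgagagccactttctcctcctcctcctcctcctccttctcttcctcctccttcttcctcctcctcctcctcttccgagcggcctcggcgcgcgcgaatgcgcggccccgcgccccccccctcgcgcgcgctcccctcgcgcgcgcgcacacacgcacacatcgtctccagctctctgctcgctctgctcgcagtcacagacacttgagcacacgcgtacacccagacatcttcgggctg
BHLHE40-AS1: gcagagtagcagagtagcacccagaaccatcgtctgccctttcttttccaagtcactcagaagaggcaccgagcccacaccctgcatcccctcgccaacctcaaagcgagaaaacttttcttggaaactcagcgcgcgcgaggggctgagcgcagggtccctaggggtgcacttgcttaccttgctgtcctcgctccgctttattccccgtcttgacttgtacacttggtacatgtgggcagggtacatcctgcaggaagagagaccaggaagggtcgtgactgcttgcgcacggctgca
BHLHE40: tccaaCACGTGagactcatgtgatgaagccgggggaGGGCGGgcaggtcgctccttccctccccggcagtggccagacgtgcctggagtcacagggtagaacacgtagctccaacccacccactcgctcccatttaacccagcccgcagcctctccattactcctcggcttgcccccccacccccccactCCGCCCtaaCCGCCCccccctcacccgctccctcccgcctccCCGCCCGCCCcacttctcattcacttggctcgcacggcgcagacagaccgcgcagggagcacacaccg
TNFAIP3: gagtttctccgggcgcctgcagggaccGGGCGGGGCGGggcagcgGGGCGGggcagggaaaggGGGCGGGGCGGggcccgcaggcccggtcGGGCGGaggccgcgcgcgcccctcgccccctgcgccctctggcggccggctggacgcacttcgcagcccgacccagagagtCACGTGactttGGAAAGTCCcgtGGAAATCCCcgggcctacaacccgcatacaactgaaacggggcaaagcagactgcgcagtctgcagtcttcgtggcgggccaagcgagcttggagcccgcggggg

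Of all 35116 RefSeq windows of this length, 7.26% held the E box, 34.6% the CCAAT box, 45.0% the GC box, 11.5% the TATA box, 1.77% the octamer and 6.26% the kappa B motif. The MEF2C-AS1 window held 1 CCAAT box and 30 CG pairs and the MEF2C window held 32 CG pairs, against a median of 14 in all windows. The BHLHE40-AS1 window held 15 CG pairs and no listed motif, and the BHLHE40 window held 22 CG pairs, 1 E box and 5 GC boxes. BHLHE40 is itself a helix-loop-helix repressor that binds E boxes. The TNFAIP3 window held 35 CG pairs, 1 E box, 6 GC boxes and 2 kappa B motifs. These matches are descriptions of letters, not measured binding sites. RefSeq gave a name to 28 of the 55 antisense genes and a start window to 21.

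Most of the antisense genes were lower with PHF19 overexpression. In normalized counts, meaning the authors' counts divided by 1 factor per library, 20 antisense genes were higher in PHF19_OE and 35 were lower. The lower share was 63.6% for the antisense genes and also 63.6% for all listed genes. The authors' adjusted p was under 0.05 for 9 antisense genes. Of these 4 were higher, where 9.09% of all listed genes passed in that direction, and 5 were lower, where 14.7% of all listed genes did. The 9 are 16.4% of them, against 23.8% of all listed genes, 1.74% of the 16881 genes the authors adjusted over, and 16.7% of the 72 listed lincRNAs. With 2 bulk libraries a group, fewer cells carrying a transcript and less of it per cell cannot be told apart.

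The median log2 difference over the antisense genes was −2.27, against −2.07 over listed lincRNAs and −1.33 over all listed genes. The scale is log2 of the mean normalized count plus 1. The antisense median depended on the EV library. Against EV 1 alone it was −2.77 for antisense and −1.57 for all listed genes, and against EV 2 alone −1.04 and −0.42. Other settings moved both medians: they were −1.46 for antisense and −0.44 for all listed genes with TMM factors from the listed genes, and −1.31 and −0.31 with DESeq2 factors. On FPKM plus 1 the order turned, with −0.37 for antisense and −0.51 for all listed genes. Of the 35 lower antisense genes, EV 1 lay above EV 2 in 31, and in 24 of them by over 2-fold. That is 68.6% of the lower antisense genes, against 76.1% of lower listed lincRNAs and 58.7% of all lower listed genes.

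Groups did not overlap in 53 of the 55 antisense genes, against 90.5% of all listed genes. In 20 of them both PHF19_OE libraries were higher, as in 36.2% of all listed genes, and in 33 both were lower, as in 54.3%. The 2 whose groups overlapped were AC027307.2 and AC073130.2. AC027307.2 had 93.7 and 42.0 normalized counts in PHF19_OE, against 468 and 57.7 in EV, so it was lower against EV 1 only. In AC073130.2 the reads came from EV 1 alone, with 0 and 0 normalized counts in PHF19_OE and 30.1 and 0 in EV.

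Antisense levels were low. The highest FPKM of an antisense gene in any library, a level per length, had a median of 1.22 and a range of 0.150 to 18.4, against a median of 3.30 for listed coding genes and 1.23 for lincRNAs. There were 29 antisense genes with under 50 counts in every library, and 20 reached 100 counts in some library. No read at all was counted in both PHF19_OE libraries for 11 antisense genes and in both EV libraries for 10. A group at 0 thus occurred in 38.2% of antisense genes, against 37.5% of listed lincRNAs and 13.8% of all listed genes. With a floor of 3 counts over the group at 0, the lower ones were at least 7.15-fold to 17.2-fold lower in PHF19_OE, and the higher ones at least 6.92-fold to 23.9-fold higher, by group means. These bounds rest on unequal libraries. For the lower ones they ran from 1.91 to 29.1 with EV 1 alone and from 0, which is no bound, to 12.4 with EV 2 alone. For the higher ones they ran from 2.75 to 33.0 with PHF19_OE 1 alone and from 3.12 to 14.8 with PHF19_OE 2 alone. Floors and intervals cover counting error only.

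**Figure D1:**
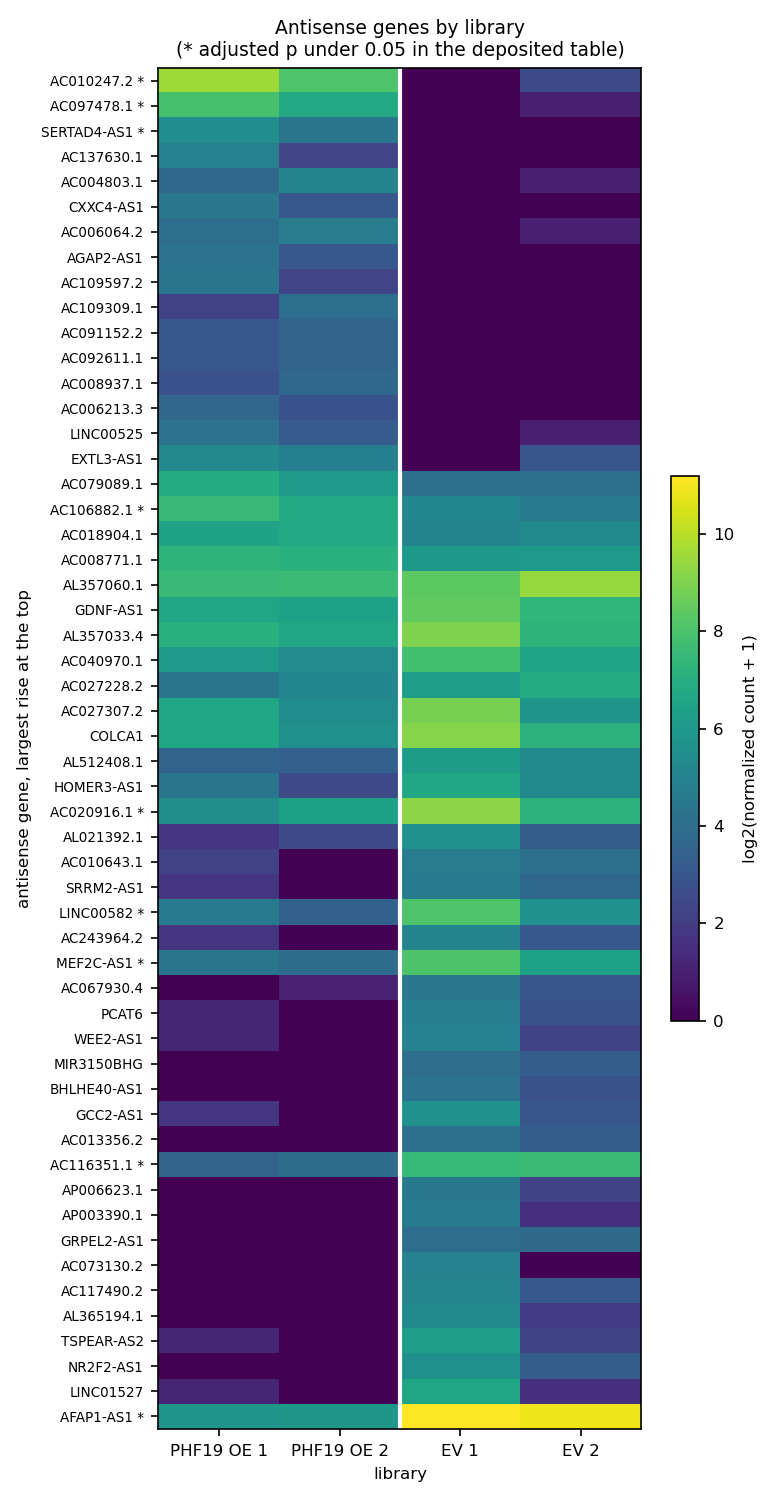
Each line is one of 54 of the antisense genes and each column a library, coloured by log2 of the normalized count plus 1, with the largest rise at the top and asterisks on the 9 genes that pass in the authors' deposited table. AFAP1-AS1 at the bottom is bright in both EV libraries, and many lower genes are brighter in EV 1 than in EV 2.

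AFAP1-AS1 fell furthest among the better-counted antisense genes, those whose higher group reached 50 normalized counts. It lies at chr4:7754090-7778928 on the plus strand and has 2 exons. Its span starts past the end of AFAP1 and runs into that gene, where 99.0% of its exonic bases lie. AFAP1 codes for an actin filament-associated protein. The RNA AFAP1-AS1 is best known for high levels in carcinomas. It had 57.7 and 60.4 normalized counts in PHF19_OE, against 2330 and 1919 in EV. Both overexpressing libraries were far below both EV libraries, and the libraries of each group lay close together. The mean was 59.0 ± 1.91 in PHF19_OE and 2125 ± 291 in EV (SD, n = 2 each), 36.0-fold lower. The log2 fold change in the authors' deposited table was −5.17, at an adjusted p of 2.21e-31.

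AC116351.1, which RefSeq names LINC02982, lies at chr5:987180-997308 on the minus strand, over no coding gene of the other strand. It had 10.8 and 14.3 normalized counts in PHF19_OE, against 179 and 194 in EV, 14.8-fold lower. The groups were far apart and both EV libraries gave nearly the same fold, 14.2 and 15.4. The authors' deposited table gives −3.88 as its log2 fold change and 3.70e-06 as its adjusted p.

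The other 3 antisense genes that fell had EV libraries far apart. MEF2C-AS1, at chr5:88883328-89466398 on the plus strand, had 19.2 and 14.3 normalized counts in PHF19_OE, against 266 and 83.1 in EV. Its 10.4-fold lower mean was 15.9-fold lower against EV 1 and 4.95-fold lower against EV 2, and the authors' deposited table gives a log2 fold change of −3.38 (adjusted p 0.00296). LINC00582, inside the TSNAX-DISC1 readthrough gene on chromosome 1, had 22.8 and 10.2 normalized counts in PHF19_OE, against 277 and 48.9 in EV. That is 16.8-fold lower against EV 1 and 2.96-fold lower against EV 2, and 7.14-fold lower for PHF19_OE 1 and 15.9-fold lower for PHF19_OE 2 against the EV mean, with an adjusted p of 0.0300 in the authors' deposited table. AC020916.1 is a single exon of 19049 bases on chromosome 19 that overlaps ZSWIM4, with 12.0% of its bases on coding-gene exons. It had 45.7 and 79.8 normalized counts in PHF19_OE, against 604 and 146 in EV, 9.63-fold lower against EV 1 and 2.32-fold lower against EV 2, and an adjusted p of 0.0308 in the authors' deposited table. In all 3 the groups did not overlap, and EV 1 was the higher EV library.

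Of the 4 antisense genes that rose, 3 were at or near 0 in EV. AC097478.1 has no listed gene on its other strand. It had 246 and 108 normalized counts in PHF19_OE, against 0 and 0.978 in EV, where the sum was 1 read. The ratio of counts, corrected for library factors, was 393 with an exact 95% interval of 70.0 to 15563 (504 for PHF19_OE 1 and 222 for PHF19_OE 2), and the authors' deposited table gives 8.65 as its log2 fold change and 1.52e-05 as its adjusted p.

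SERTAD4-AS1, opposite SERTAD4 on chromosome 1, had 43.3 and 19.4 normalized counts in PHF19_OE, against 0 and 0 in EV, so it was at least 23.9-fold higher by group means and at least 14.8-fold higher with PHF19_OE 2 alone. Its adjusted p was 0.0181 in the authors' deposited table. AC106882.1, inside TMEM154 on chromosome 4 with no base on its exons, had 193 and 108 normalized counts in PHF19_OE, against 34.9 and 22.5 in EV. It was 5.27-fold higher, with an adjusted p of 0.0412 in the authors' deposited table, and it alone among the 4 had over 20 counts in each EV library. The fourth, AC010247.2, is described with POU2F2 below.

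Other tests of the same counts, which estimate their spread from the listed genes only, called partly other antisense genes. DESeq2, adjusted over the same 16881 genes, called 4 antisense genes, all among the 9: AFAP1-AS1, AC116351.1, AC097478.1 and AC010247.2. That is 7.27% of the antisense genes, against 10.9% of all listed genes. edgeR's quasi-likelihood test with the same adjustment called 0 antisense genes and 0 of all listed genes. An unadjusted p under 0.05 was found by edgeR for 16 of the 27 antisense genes it could test (59.3%), against 49.0% of all listed genes tested.

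Adjusted over the listed genes alone, which the same contrast had selected, edgeR called 8 antisense genes (5 higher, 3 lower) with the authors' factors, where it called 14.0% of all listed genes tested. Of these 8, 5 were among the 9, and AC004803.1, AC006064.2 and GRPEL2-AS1 were not. MEF2C-AS1, LINC00582, AC020916.1 and AC106882.1 were not called. With TMM factors from the listed genes it called 7 (6 higher, 1 lower), against 15.6% of all listed genes tested, and with DESeq2 factors 9 (8 higher, 1 lower), against 20.0%. These scalings shifted the log2 fold changes of the listed genes by a median of 0.75 and 0.88. The direction of each of the 55 antisense genes was the same under both.

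A listed gene stood on the other strand of 14 antisense genes, overlapping it in 12 cases and within 5 kb in 2. In 13 of these 14 pairs both genes had the same direction, 10 lower together and 3 higher together. That is 92.9% of the pairs, against 88.0% (22 of 25) of the other listed pairs of genes on opposite strands. The authors' adjusted p was under 0.05 for the coding gene in 7 pairs, for the antisense gene in 3 and for both in 2. It was under 0.05 for 24.7% of all listed coding genes and 16.4% of the antisense genes. Of the pairs, 7 lie head to head, 3 antisense genes lie inside the coding gene, 3 hold it within their own span and 1 pair lies tail to tail. In 9 pairs the FPKM of the coding gene was at least as high as that of the antisense gene in every library.

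**Figure D2:**
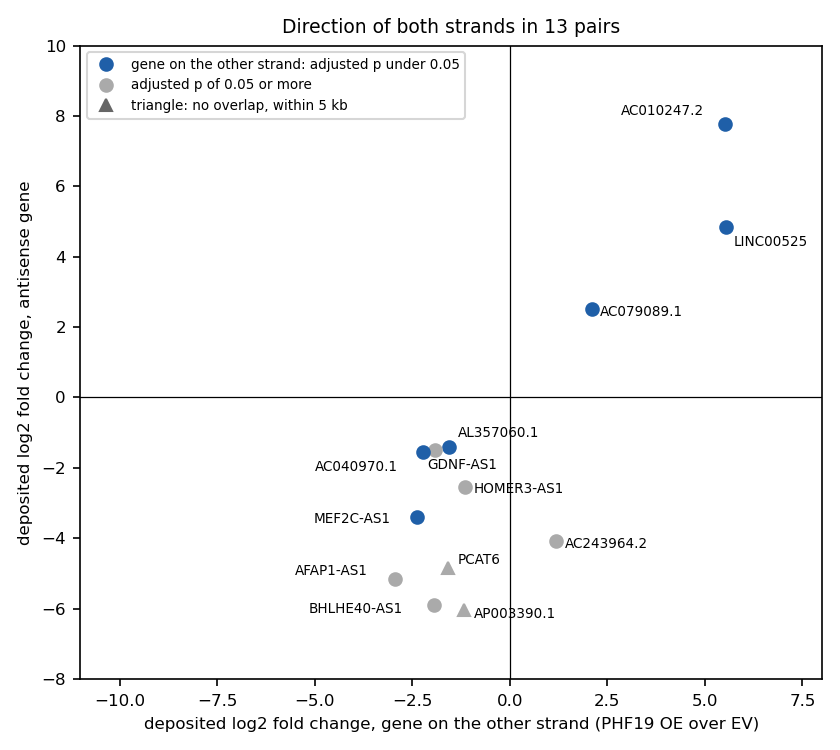
Each point is one of 13 of the pairs, with the log2 fold change of the listed gene on the other strand on the horizontal axis and that of the antisense gene on the vertical axis, both from the authors' deposited table (PHF19_OE over EV). Most points, 12 of 13, lie in the lower left and upper right, and AC243964.2 beside PVR lies in the lower right.

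Both genes rose at the POU2F2 locus. POU2F2 codes for OCT2, a transcription factor of B cells that binds the octamer motif. It had 9052 and 9191 normalized counts in PHF19_OE, against 219 and 178 in EV, 45.9-fold higher, and the authors' deposited table gives a log2 fold change of 5.52 (adjusted p 2.67e-45). AC010247.2 lies at chr19:42152569-42157523 on the plus strand, wholly inside POU2F2 and with no base on its exons. It had 781 and 271 normalized counts in PHF19_OE, against 0 and 4.89 in EV, 215-fold higher on 5 EV reads (320-fold for PHF19_OE 1 and 111-fold for PHF19_OE 2), with an adjusted p of 0.00649 in the authors' deposited table. The PHF19_OE libraries were nearly equal for POU2F2 and far apart for AC010247.2. Its share of the reads of both genes was 7.94% (exact 95% interval 7.37 to 8.55) and 2.87% (2.54 to 3.23) in PHF19_OE, against 0% (0 to 1.32) and 2.67% (0.874 to 6.13) in EV.

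Both genes also rose or were higher at 2 other loci. SLCO5A1, a member of the organic anion transporter family, had 489 and 733 normalized counts in PHF19_OE, against 115 and 170 in EV, with an adjusted p of 0.00253 in the authors' deposited table. Its head-to-head partner AC079089.1 had 120 and 63.4 in PHF19_OE, against 16.6 and 15.6 in EV, 5.69-fold higher with an adjusted p of 0.102 there. PKD1L1, of the polycystin family, had 80.5 and 134 normalized counts in PHF19_OE, against 0 and 4.89 in EV, with an adjusted p of 0.000226 in the authors' deposited table. LINC00525, inside it, had 18.0 and 8.19 in PHF19_OE, against 0 and 0.978 in EV, and its adjusted p was 0.670 in that table. Neither antisense partner passed the threshold, although their groups did not overlap.

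MEF2C and MEF2C-AS1 both fell. MEF2C is a MADS box transcription factor used in B cells, muscle and neurons. It had 2412 and 2081 normalized counts in PHF19_OE, against 13124 and 10064 in EV, 5.16-fold lower with an adjusted p of 1.75e-07 in the authors' deposited table. The antisense share of the reads of both genes was 0.791% (exact 95% interval 0.453 to 1.28) and 0.684% (0.374 to 1.14) in PHF19_OE, against 1.99% (1.78 to 2.21) and 0.819% (0.655 to 1.01) in EV. EV 1 stood above the other 3 libraries, whose intervals met. The 2 annotated spans overlap by 20930 bases, and 5.37% of the exonic bases of MEF2C-AS1 fall on MEF2C exons.

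At the TNFAIP3 and DENND3 loci the coding gene fell and its antisense partner was lower without passing. TNFAIP3 codes for A20, an inhibitor of NF-kappa B signalling. It had 3327 and 3218 normalized counts in PHF19_OE, against 7833 and 11364 in EV, 2.93-fold lower with an adjusted p of 0.00652 in the authors' deposited table. AL357060.1, which RefSeq names WAKMAR2, had 191 and 198 in PHF19_OE, against 325 and 713 in EV. Here EV 2 was the higher EV library for both genes. DENND3, an exchange factor for the small GTPase RAB12, had 735 and 907 normalized counts in PHF19_OE, against 4909 and 2717 in EV, with an adjusted p of 0.000128 in the authors' deposited table. AC040970.1, inside it, had 64.9 and 40.9 in PHF19_OE, against 220 and 90.9 in EV.

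**Figure D3:**
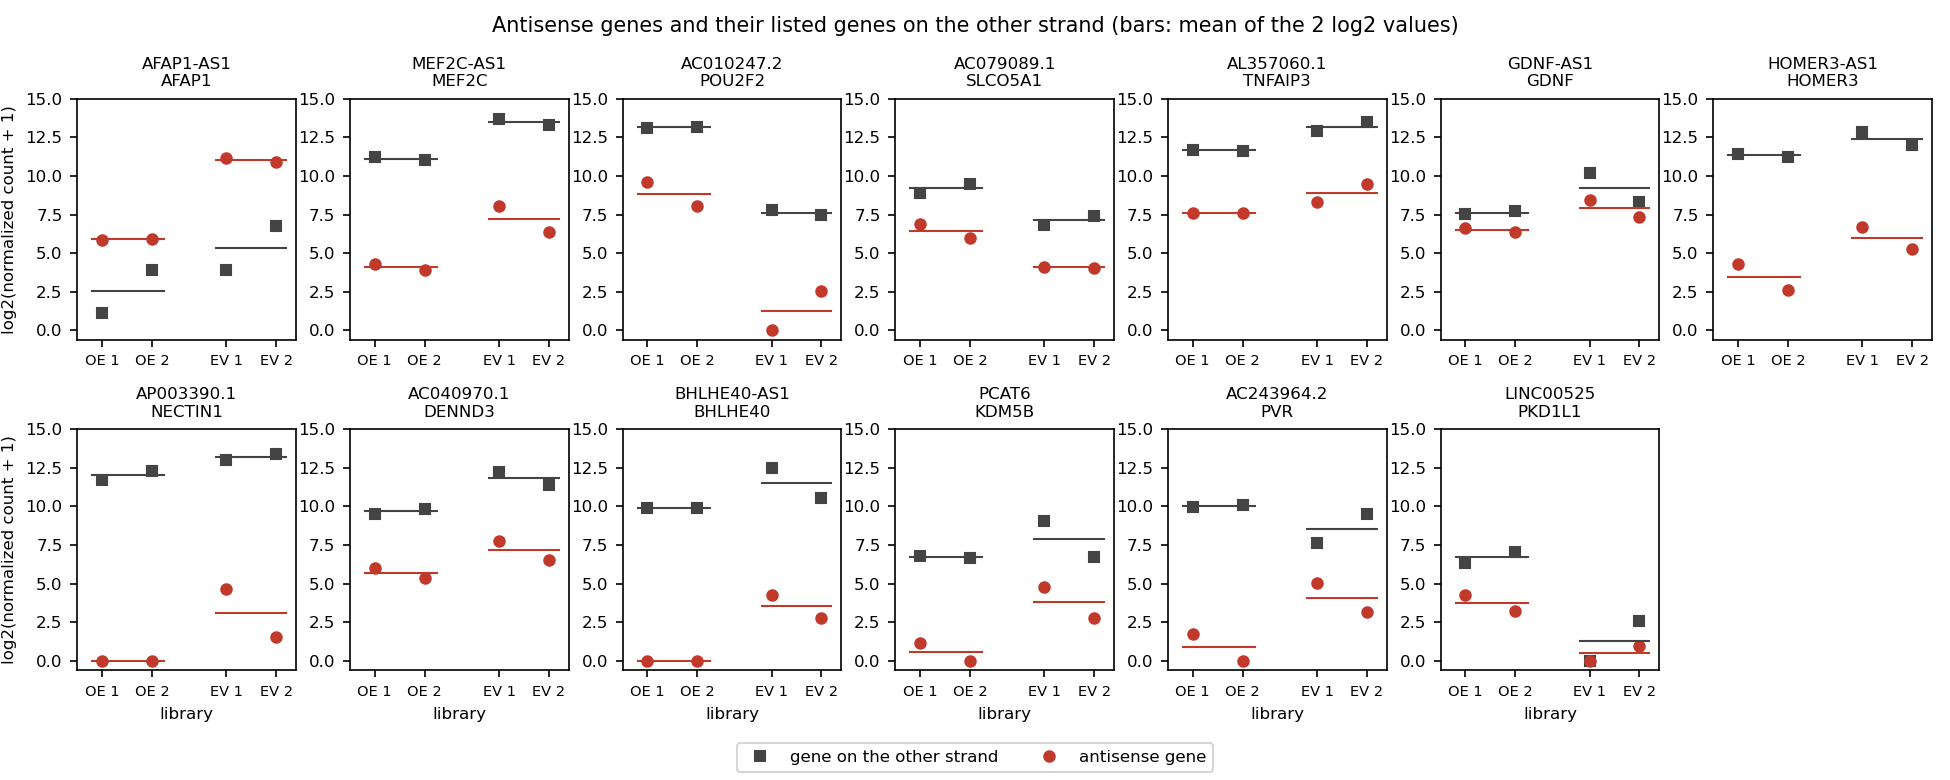
Each panel is one of 13 of the pairs, with the 4 libraries on the horizontal axis and log2 of the normalized count plus 1 on the vertical axis, as squares for the gene on the other strand and circles for the antisense gene, and lines at the mean of the 2 log2 values of a group. At POU2F2 both genes are higher in PHF19_OE, at MEF2C both are lower, and at PVR they go opposite ways.

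In 5 pairs both genes were lower and neither passed. GDNF, a neurotrophic ligand of the RET receptor, had 185 and 212 normalized counts in PHF19_OE, against 1168 and 319 in EV, while GDNF-AS1 had 97.3 and 83.9 in PHF19_OE, against 348 and 164 in EV. HOMER3, a scaffold protein, had 2730 and 2466 in PHF19_OE, against 7305 and 4157 in EV, while HOMER3-AS1 had 19.2 and 5.12 in PHF19_OE, against 101 and 38.1 in EV. In both pairs EV 1 was the highest library for either gene. BHLHE40, whose start region is printed above, had 960 and 944 in PHF19_OE, against 5851 and 1524 in EV, while BHLHE40-AS1 had 0 and 0 in PHF19_OE, against 18.2 and 5.87 in EV. NECTIN1, a cell adhesion receptor, had 3360 and 5027 in PHF19_OE, against 8339 and 10645 in EV, while AP003390.1, which RefSeq names NECTIN1-DT, had 0 and 0 in PHF19_OE, against 24.6 and 1.96 in EV. The antisense gene was at 0 in both PHF19_OE libraries in these last 2 pairs. KDM5B, a histone H3 lysine 4 demethylase, had 111 and 101 in PHF19_OE, against 533 and 106 in EV, so EV 1 alone stood apart and the groups overlapped. PCAT6 had 1.20 and 0 in PHF19_OE, against 26.9 and 5.87 in EV.

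AFAP1 itself had few reads, and its groups overlapped. It had 1.20 and 14.3 normalized counts in PHF19_OE, against 14.3 and 107 in EV, and an adjusted p of 0.539 in the authors' deposited table. Per length, AFAP1 had 0.00418 and 0.0495 FPKM in PHF19_OE, against 0.0509 and 0.369 in EV, and AFAP1-AS1 had 0.296 and 0.308 FPKM in PHF19_OE, against 12.3 and 9.81 in EV. The antisense gene had the higher FPKM in every library. Of the 2 EV libraries, EV 2 had more AFAP1 and less AFAP1-AS1, while by group means both genes were lower in PHF19_OE.

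PVR was the exception in direction. It codes for CD155, a ligand of the lymphocyte receptors TIGIT and CD226, and had 1011 and 1098 normalized counts in PHF19_OE, against 196 and 726 in EV. AC243964.2, whose span holds PVR without touching its exons, had 2.40 and 0 in PHF19_OE, against 31.7 and 7.82 in EV. EV 1 was the EV library with the least PVR and the most AC243964.2. Neither gene passed, with adjusted p values of 0.696 for PVR and 0.653 for AC243964.2 in the authors' deposited table.

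The share of a pair's reads that fell on the antisense gene varied within groups. Since it sets raw counts of genes of different length side by side, it is compared across libraries and not between loci. The exact 95% intervals of the 2 libraries of a group did not meet for 4 of the 14 pairs in PHF19_OE and for 7 in EV. By the shares alone, without their intervals, both PHF19_OE libraries were lower than both EV libraries in 6 pairs and higher in 2. In 4 the groups overlapped, and in 2 a library had no read of either gene. In each pair with a lower or higher share, the interval of some PHF19_OE library met that of some EV library. At GDNF the share was 34.5% (28.4 to 40.9) and 28.4% (23.2 to 33.9) in PHF19_OE, against 22.9% (21.1 to 24.9) and 34.0% (29.8 to 38.4) in EV.

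**Figure D4:**
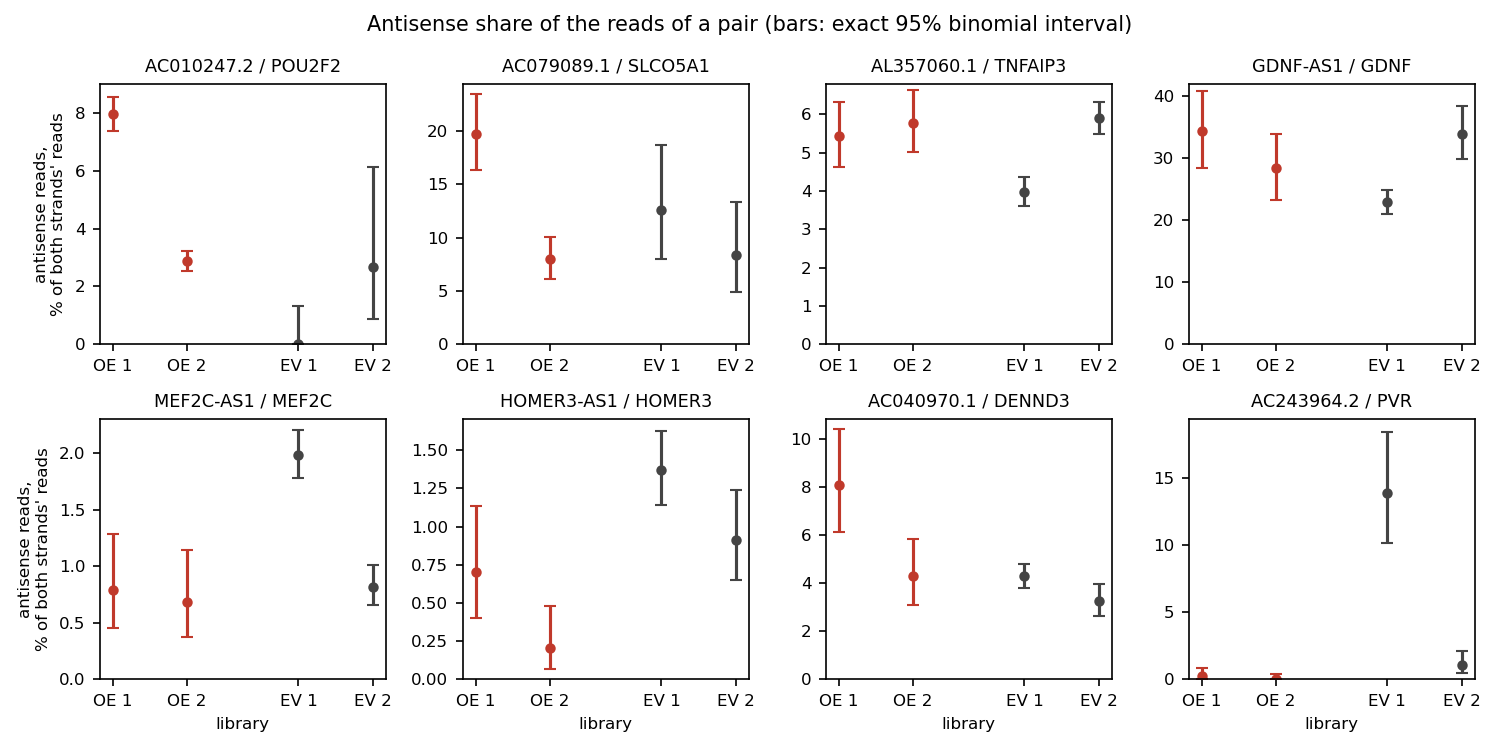
Points give the antisense share of the reads of both genes, in percent, in each library for 8 pairs, with exact 95% binomial intervals as bars. At POU2F2, SLCO5A1 and DENND3 the PHF19_OE libraries lie apart from each other, and at MEF2C, TNFAIP3, GDNF and PVR the EV libraries do.

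There were 6 pairs with 5′ ends within 2 kb of each other, at 499 bases (NECTIN1), 845 (BHLHE40), 939 (HOMER3), 953 (SLCO5A1), 1045 (TNFAIP3) and 1484 (KDM5B) by the deposited coordinates. All 6 had the same direction for both genes, 5 lower and 1 higher. So did every other listed pair of genes on opposite strands with 5′ ends within 2 kb. TNFAIP3 and SLCO5A1 passed among the coding genes of the 6 antisense pairs, where 24.7% of all listed coding genes did. No antisense gene of the 6 passed, where 16.4% of all listed antisense genes did.

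**Figure D5:**
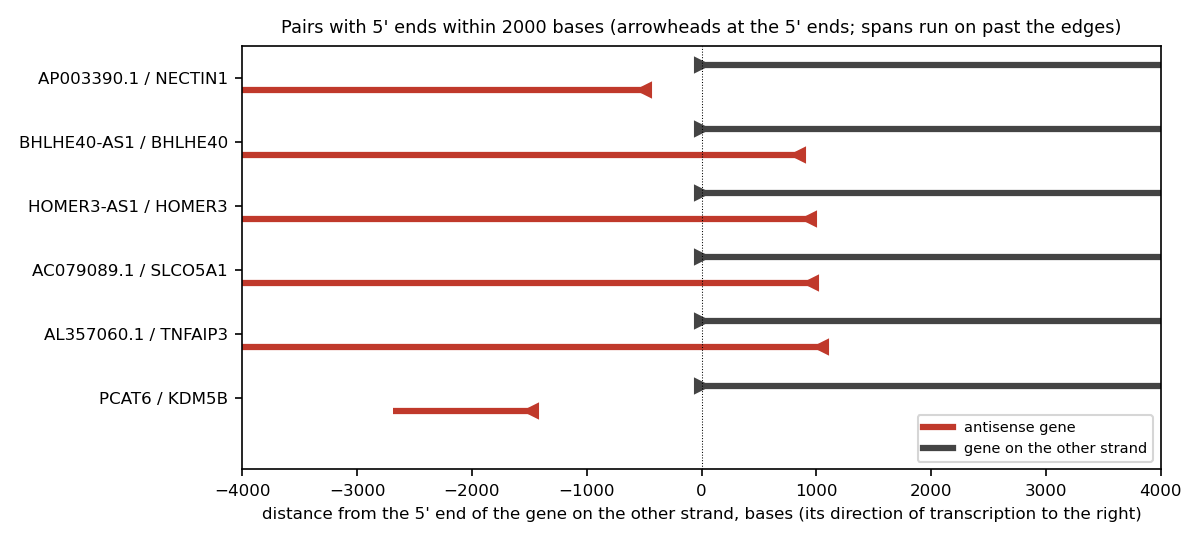
Lines show the spans of the 6 pairs with 5′ ends within 2000 bases, in bases from the start of the gene on the other strand, with arrowheads at the 5′ ends. In 4 pairs the antisense start lies inside the coding gene, and at NECTIN1 and KDM5B it lies 499 and 1484 bases outside it.

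Few members of 2 lists of described antisense RNAs were in the table. Of 36 antisense RNAs with described roles at developmental loci 1 was listed, MEF2C-AS1, which fell. Of 36 at immune and signalling loci, 1 was listed by the table's own names, TP73-AS1, which the table classes as a pseudogene and not as antisense. It had 84.1 and 57.3 normalized counts in PHF19_OE, against 25.3 and 1.96 in EV, and an adjusted p of 0.619 in the authors' deposited table. A gene outside the table may be expressed or not, since the table holds selected genes.

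Markers of other cell types also differed between the libraries. Of 8 T and NK cell markers 2 were listed (CD3E and TRAC), with summed normalized counts of 2.40 and 5.12 in PHF19_OE, against 85.5 and 40.1 in EV. Of 7 myeloid markers 1 was listed, ITGAM, with 0 and 0 in PHF19_OE, against 94.3 and 15.6 in EV. Of 7 fibroblast, endothelial and epithelial markers 1 was listed, CDH1, with 1.20 and 0 in PHF19_OE, against 99.0 and 9.78 in EV. HBB, 1 of 5 erythroid markers, had 233 and 180 in PHF19_OE, against 58.6 and 24.4 in EV. The first 3 of these sums were highest in EV 1, as were 31 of the 35 lower antisense genes, and their part in the antisense results was not tested.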

How the data were processed

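RNA of AMO1 cells was extracted with a column kit and made into libraries with a SMARTER mRNA-Seq kit, per the labels' protocols. Reads were placed on hg38, per the submitters' processing notes. Which aligner, counting program, strand setting and statistical test were used is not given in the sources used here.

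Per the file headers, the deposited table holds raw read counts per gene. Its normalized values, a signal scale, are the authors' counts divided by 1 factor per library. The authors' FPKM values are scaled to gene length and to library size, and they return the library totals. The authors' log2 fold change is PHF19_OE over EV. The deposited p-value and adjusted p-value are the authors' own. Benjamini-Hochberg adjustment over 16881 genes returned 1208 of the deposited adjusted values, and 24 are listed as 1. No column of per-sample values was left unmapped.

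The members, lists and tests were chosen with earlier results of these data known. Named genes are the antisense genes with a listed opposite-strand gene and that gene, those with an adjusted p under 0.05, the 4 largest rises and falls with at least 50 normalized counts and no overlap, listed members of 2 antisense lists, and PHF19. Coordinates and lengths were checked against GENCODE 29, whose coordinates equal those of all 55 antisense genes. The main count is the authors' adjusted p, because the table holds selected genes. The counts were tested again with edgeR 4.0.16 (quasi-likelihood) and DESeq2 1.42.0 in R 4.3.3. Only edgeR was also run on simulated counts. Low counts were removed by filterByExpr, which left 27 of the 55 antisense genes. Shares have exact binomial 95% intervals and counts of 0 a floor of 3. Alternatives were other scalings, pseudocounts, low-count filters, distances, FPKM, a replicate block and leaving out each library. One pair, counted in the totals, is not reported here by itself or drawn. Python 3.11.15 and SciPy 1.17.1 were used.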

Additional observations from a re-analysis of the deposited data

How the results depend on the processing

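The number of antisense genes past the threshold moved most: 9 by the authors' deposited adjusted p, 4 by DESeq2 and 0 by edgeR adjusted over all genes, 3 by edgeR without a filter on low counts, and between 1 and 43 when one library was left out. The whole table moved too: 43 came without EV 2, where 89.3% of all listed genes tested were called, and 14 without EV 1, where 54.0% were. The counts of 1 and 2 came without PHF19_OE 1 and PHF19_OE 2, where 2.98% and 2.36% were, and 4.46% were without the filter. A group of 1 library was there assumed to vary like the other group. With the replicate number as a block, edgeR called 8 (3 higher, 5 lower) among the listed genes, against 27.9% of all tested, and 8 (5 higher, 3 lower) without it, against 14.0%. Samples of the same number deviated together with r = 0.21 over 1232 genes, which 2 pairs cannot establish as a pairing. The median log2 difference was −0.37 on FPKM plus 1, against −0.51 for all listed genes, a scale on which 22 antisense genes stay under 1 in every library before the addition, and between −2.77 and −1.04 with one library left out. Groups did not overlap in 32 antisense genes of the 33 with a mean normalized count of at least 10, a count smaller by construction. They did not overlap in 997 of all listed genes under that filter and in 1115 without it. The share of listed genes under the filter was not computed, so the 32 of 33 has no share to be read against. Both genes shared a direction in 11 of 12 overlapping pairs and in 15 of 17 pairs within 50 kb. They did so in 13 of 14 pairs under both scalings and in 12 or 13 with a library left out. None of the log2 differences of 20 named antisense genes reversed in 120 recomputed values. Low counts limit most antisense genes: 29 had under 50 counts in every library.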

Other observations

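Among the antisense genes with no listed gene on the other strand, several lie opposite known regulators. NR2F2-AS1, beside the orphan nuclear receptor gene NR2F2, had 0 and 0 normalized counts in PHF19_OE, against 48.3 and 8.80 in EV, at least 17.2-fold lower by the group mean, 29.1-fold against EV 1 and 5.31-fold against EV 2 alone, with an adjusted p of 0.0600 in the authors' deposited table. COLCA1, opposite COLCA2, had 99.7 and 48.1 in PHF19_OE, against 573 and 146 in EV. CXXC4-AS1, opposite the Wnt pathway inhibitor gene CXXC4, had 21.6 and 7.16 in PHF19_OE, against 0 and 0 in EV. AGAP2-AS1 had 18.0 and 7.16 in PHF19_OE, against 0 and 0 in EV. None of these 4, chosen after their values were seen, passed the threshold. The coding genes opposite them are not among the listed genes.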
